A study of Mus musculus with 46 samples.

Results

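The epidermal growth factor (EGF) receptor ligands are a small family of secreted growth factors, and 7 of their genes were followed through mouse intestine exposed to imeglimin, to metformin or to neither drug. They were amphiregulin (Areg), epiregulin (Ereg), heparin-binding EGF-like growth factor (Hbegf), transforming growth factor alpha (Tgfa), betacellulin (Btc), EGF itself (Egf) and epigen (Epgn). The genes were taken by symbol, and all 7 were found among 45777 symbols in the bulk tables and among 19070 genes in the single-cell matrices. The family was chosen by its CPM in the colon 6 h after either drug, where Areg was high, so the drug against control values of that experiment are given as a description with no test. All mice were male C57BL/6J. In the acute experiment colon was taken 6 h after a single oral dose of 600 mg/kg imeglimin or 600 mg/kg metformin, and from controls. In the chronic experiment the colon and 3 segments of small intestine (proximal, middle and distal) were collected after 4 weeks with imeglimin at 3 mg/mL or metformin at 3 mg/mL in the drinking water, and from controls. Each of these 15 groups held 3 bulk RNA-seq libraries, and colon cells of the 3 treatments were also profiled singly after 12 weeks.

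The ligands are made as membrane-anchored precursors, which metalloproteases such as Adam17 and Adam10 cut free at the cell surface. All of them bind the EGF receptor, and Btc, Hbegf and Ereg also bind ErbB4, while ErbB2 has no known ligand of its own and serves as a partner of the other receptors. The activated receptors signal through Ras and the ERK kinases, which switch on immediate target genes and also the phosphatases and Sprouty proteins that turn the pathway down. In the gut the family is known for driving epithelial growth and repair. Both drugs lower blood glucose in diabetes. Metformin belongs to the biguanides, and imeglimin is a tetrahydrotriazine.

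In the RefSeq annotation of assembly GRCm38.p6, Epgn, Ereg, Areg and Btc followed one another on chromosome 5 with 0 other protein-coding genes between any neighbouring pair. A promoter, here the 250 bases before and 50 bases after the gene's start, was in the RefSeq table for 5 of the 7 genes. These were Areg, Btc, Tgfa, Egf and Epgn. The promoters of Areg and Btc are printed because these neighbours rose with metformin in distal small intestine and colon. That of Tgfa is printed because edgeR called it in no drug comparison, which was also so for Egf. By DESeq2 Tgfa was called with imeglimin against control in acute colon. Areg is at chr5:91139349-91139648 on the plus strand, Btc at chr5:91402945-91403244 on the minus strand and Tgfa at chr6:86194972-86195271 on the plus strand, each running from before the gene's start into it. Capitals mark the cyclic AMP response element TGACGTCA and the TATA box TATAAA, searched on both strands.

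Areg: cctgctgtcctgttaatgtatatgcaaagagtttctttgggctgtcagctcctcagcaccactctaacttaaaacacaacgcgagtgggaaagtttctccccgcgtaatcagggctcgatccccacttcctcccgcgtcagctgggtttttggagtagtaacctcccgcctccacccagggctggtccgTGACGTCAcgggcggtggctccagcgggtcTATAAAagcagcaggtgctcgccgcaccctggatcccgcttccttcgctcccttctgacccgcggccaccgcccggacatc

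Btc: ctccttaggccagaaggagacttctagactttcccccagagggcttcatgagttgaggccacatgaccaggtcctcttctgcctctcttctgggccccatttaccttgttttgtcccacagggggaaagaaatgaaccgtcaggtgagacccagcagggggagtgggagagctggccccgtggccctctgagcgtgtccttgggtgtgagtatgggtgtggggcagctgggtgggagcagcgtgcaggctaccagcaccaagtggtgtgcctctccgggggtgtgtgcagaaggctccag

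Tgfa: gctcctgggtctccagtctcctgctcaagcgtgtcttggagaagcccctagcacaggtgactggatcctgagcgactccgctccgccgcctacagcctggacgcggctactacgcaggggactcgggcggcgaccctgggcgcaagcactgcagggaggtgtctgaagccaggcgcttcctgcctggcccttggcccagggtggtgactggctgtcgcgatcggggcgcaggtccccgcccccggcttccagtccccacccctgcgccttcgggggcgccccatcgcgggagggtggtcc

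The response element TGACGTCA occurred 1 time in the Areg promoter, at position 190 of 300 counted from the first base printed. It was in 1.79% of all 32851 promoters of this length and in none of those of Btc, Tgfa, Egf and Epgn. The shorter core TGACG, which the full element contains, had 3 matches in Areg, 1 in Btc and 1 in Epgn, and it was in 20.8% of all promoters. The Areg matches were at positions 136, 190 and 193. Those at 190 and 193 lie within the full element, which reads the same on both strands. TATAAA occurred in Areg at position 220 and in Epgn, and in 13.6% of all promoters. The AP-1 element TGANTCA (7.81% of all promoters) and the amino acid response letters TGATGNAA (3.97%) had 0 matches in the promoters of these 5 genes. These are matches of letters only.

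Libraries held 31606797 to 47324301 counts. Levels are given as CPM (count share of a library, scaled to a fixed total, after TMM scaling, which corrects for library composition). A gene is called changed where the edgeR quasi-likelihood test gave a Benjamini-Hochberg adjusted p under 0.05 over all genes tested in that tissue. The labelled tissues were checked against marker genes, and 4 small intestinal enterocyte markers summed to between 2597 and 31269 CPM in the small intestine and to between 28.3 and 673 CPM in the colon. Some libraries stood apart. In chronic colon, control replicate 3 held 11240 CPM of pancreas acinar markers, against at most 0.932 CPM in the other 8 libraries. In distal small intestine, control replicate 1 held 14436 CPM of Paneth and deep crypt secretory cell markers, against 4412 to 5625 CPM in the other controls. Values without these libraries are given wherever leaving them out ended the call of a ligand. In bulk tissue, fewer cells of a type and less RNA per cell cannot be told apart, and since no label ties a replicate to an animal of its own, the p-values measure the spread between these libraries.

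Counts of 6 of the 7 ligands were found in every chronic control library, and Epgn was missing from some. Egf was low in the small intestine, at 11 to 26 counts in the proximal controls. Per kilobase of exon (GENCODE M21), Hbegf had the highest mean of the ligands in the 3 small intestinal segments and Areg in the colon, while Epgn had the lowest mean throughout. Areg had 7.54 ± 1.05 CPM per kb in the proximal, 3.60 ± 0.646 in the middle and 7.97 ± 0.447 in the distal segment, and 13.7 ± 3.18 in colon (SD, n = 3 each). Hbegf had 14.2 ± 3.45, 11.9 ± 8.03, 14.97 ± 5.83 and 6.58 ± 2.17 CPM per kb in the same order. Its libraries spread widely, and in the middle segment its SD range overlapped that of Tgfa, which had 6.30 ± 0.482 CPM per kb. In the colon the order was Areg, Hbegf, Tgfa, Btc, Egf, Ereg and Epgn, and the SD ranges of Hbegf and Tgfa overlapped there, as did those of Egf and Ereg. Egf, which gave the family its name, reached 1.33 ± 0.218 CPM per kb in colon and at most 0.257 ± 0.107 CPM per kb in a small intestinal segment. Epgn had 0 to 8 counts in any chronic control library.

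**Figure D1:**
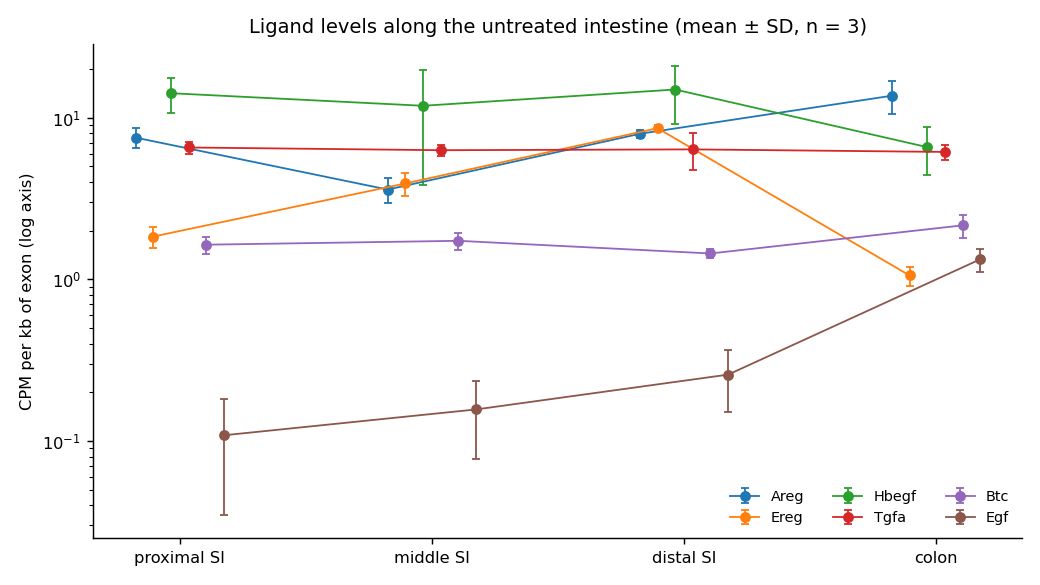
Mean level of 6 ligands in the 4 segments of untreated intestine, as CPM per kb of exon on a log axis, with the SD of 3 control libraries as bars. Ereg is highest in distal small intestine and lowest in colon, Egf is highest in colon, and Tgfa is nearly level.

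Ereg differed between every pair of neighbouring segments. Each segment came as a count table of its own, so segment and table cannot be told apart in these contrasts. The labels do not say whether segments came from the same mice, and the fit treats all libraries as separate. Scaled over all chronic libraries, Ereg had 8.93, 6.87 and 6.99 CPM in untreated proximal and 17.8, 13.1 and 17.7 CPM in middle small intestine. It had 37.3, 35.2 and 34.2 CPM in distal small intestine and 5.03, 4.14 and 3.91 CPM in colon. No library of one segment overlapped with another segment's. The log2 difference was -1.09 ± 0.18 for proximal against middle (edgeR adjusted p = 0.00023), -1.14 ± 0.18 for middle against distal (edgeR adjusted p = 4.49e-05) and 3.03 ± 0.19 for distal small intestine against colon (edgeR adjusted p = 2.04e-13). Areg was lowest in the middle segment, with log2 differences of 1.07 ± 0.26 for proximal against middle (edgeR adjusted p = 0.0101) and -1.15 ± 0.26 for middle against distal (edgeR adjusted p = 0.00321). The difference from the proximal segment was lost without replicate 2 (0.181) or 3 (0.0721), and that from the distal segment without replicate 3 (0.104).

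Between distal small intestine and colon 5 of the 7 ligands were called, against 45% of all genes. Ereg and Hbegf were higher in distal small intestine, and Egf, Areg and Btc were lower there. Egf had 1.75, 0.725 and 1.23 CPM in distal small intestine, against 7.53, 5.49 and 6.13 CPM in colon, a log2 difference of -2.36 ± 0.42 (edgeR adjusted p = 3.78e-05). Areg differed by -0.78 ± 0.25 and Btc by -0.58 ± 0.19, and Hbegf by 1.18 ± 0.38. The Areg call was lost without replicate 2 (adjusted p = 0.122), the Btc call without replicate 1 (0.14) or 3 (0.0654), and the Hbegf call without replicate 2 (0.126) or 3 (0.28) or with the 12 control libraries alone (0.0515). Tgfa differed by 0.05 ± 0.15 between distal small intestine and colon and was called between no neighbouring segments. For proximal against middle and for middle against distal, 6.71% and 9.97% of all genes were called.

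In the colon 6 h after the dose, Areg stood far above its control level with both drugs. It had 148, 219 and 203 CPM with imeglimin and 72.2, 91.5 and 61.7 CPM with metformin, against 3.59, 2.92 and 5.80 CPM in controls. The groups did not overlap, and the log2 fold change was 5.52 ± 0.27 with imeglimin and 4.18 ± 0.26 with metformin (SE). Ereg had 41.2, 43.1 and 48.9 CPM with imeglimin and 22.9, 34.1 and 32.4 CPM with metformin, against 4.59, 3.22 and 7.95 CPM in controls. All drug libraries again lay above all control libraries. Epgn, nearly silent in controls at 4, 0 and 3 counts, had 36, 32 and 35 counts with imeglimin and 8, 20 and 50 with metformin.

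The remaining ligands moved less. Btc averaged 10.6 ± 0.799 CPM with imeglimin and 11.9 ± 1.26 CPM with metformin, against 5.96 ± 0.907 CPM in controls (SD, n = 3 each). Hbegf averaged 27.6 ± 3.46 CPM with imeglimin and 16.1 ± 2.17 CPM with metformin, against 12.3 ± 4.82 CPM in controls, and its metformin libraries overlapped with the controls. Tgfa averaged 49.5 ± 3.95, 41.9 ± 2.75 and 41.3 ± 3.45 CPM with imeglimin, with metformin and in controls. Egf averaged 6.91 ± 0.961, 8.46 ± 1.65 and 9.58 ± 0.870 CPM in the same order. With imeglimin 5 ligands passed the threshold (33.3% of all genes did) and with metformin 4 (19.7% of all genes), and since this experiment chose the family, nothing is read from these counts.

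**Figure D2:**
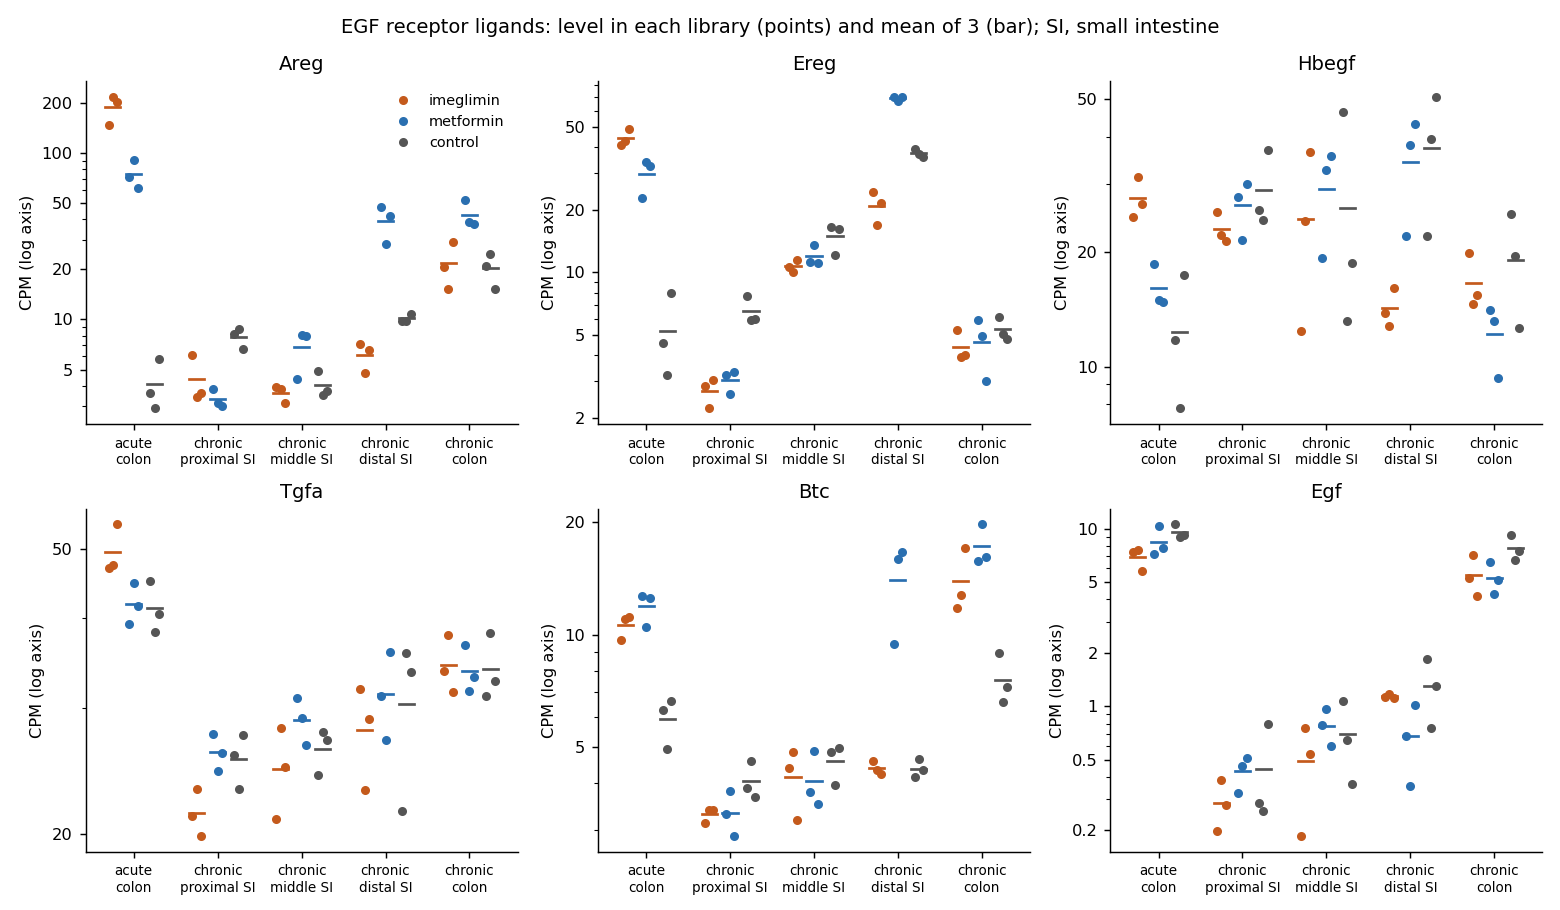
CPM of 6 ligands on a log axis in each of the 45 bulk libraries, by tissue and treatment, with bars at the mean of 3. Areg is far above control with both drugs in acute colon, above control in distal small intestine and chronic colon with metformin, and below control in proximal small intestine with both drugs.

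Imeglimin and metformin were given at the same dose in the acute experiment, and Areg stood higher with imeglimin there. The libraries are those whose values against control chose the family, so the difference is given as a description and is not independent of that choice. All 3 imeglimin libraries lay above all 3 metformin libraries, with a log2 difference of 1.34 ± 0.22 (edgeR adjusted p = 0.0344). By edgeR no other ligand was called between the drugs there, and 0.645% of all genes were. The call was lost with the labels' batch number, which equals the replicate number, as a replicate block (adjusted p = 0.0701) and without any single imeglimin library (0.054 to 0.167) or without metformin replicate 1 (0.053) or 3 (0.151). Ereg, Hbegf and Tgfa also had every imeglimin library above every metformin library, by 0.58, 0.77 and 0.24 on the log2 scale, and did not pass (edgeR adjusted p = 0.279, 0.157 and 0.264). Hbegf passed with DESeq2 (adjusted p = 0.0237). Btc differed by -0.17 with a 95% interval of -0.50 to 0.16, and Egf by -0.29 with an interval of -0.67 to 0.09.

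After 4 weeks edgeR called ligands against control in proximal and distal small intestine and in colon, and none in middle small intestine. In proximal small intestine Areg and Ereg were low with both drugs. Ereg had 2.84, 2.22 and 3.05 CPM with imeglimin and 3.22, 2.61 and 3.32 CPM with metformin, against 7.71, 5.89 and 5.99 CPM in controls. Every drug library lay below every control library, and Ereg fell by 1.27 ± 0.18 with imeglimin (edgeR adjusted p = 0.0169) and by 1.10 ± 0.18 with metformin (edgeR adjusted p = 0.0113) on the log2 scale. Areg had 6.08, 3.40 and 3.64 CPM with imeglimin and 3.80, 3.13 and 3.00 CPM with metformin, against 8.23, 8.75 and 6.63 CPM in controls. It fell by 1.25 ± 0.22 with metformin (edgeR adjusted p = 0.0164), and its log2 fold change with imeglimin was -0.84 ± 0.22, which did not pass (edgeR adjusted p = 0.0872) although the groups did not overlap. DESeq2 called Areg with imeglimin (adjusted p = 0.00664). The 2 comparisons share their control libraries.

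The calls in proximal small intestine, 1 of 6 ligands tested with imeglimin (1.16% of all genes) and 2 of 6 with metformin (4.11% of all genes), rested on few libraries. The imeglimin call of Ereg was lost without control replicate 1 (adjusted p = 0.0648) or imeglimin replicate 2 (0.0765), and both metformin calls without metformin replicate 3 (0.078 for Areg and 0.0533 for Ereg). Marker genes of other cells were also lower there. With metformin 4 of 7 fibroblast, 5 of 6 smooth muscle and 4 of 5 Paneth and deep crypt secretory cell markers were called lower, and with imeglimin 2 of 7 fibroblast and 2 of 6 endothelial markers. The summed fibroblast markers were 170 to 200 CPM with imeglimin and 159 to 175 CPM with metformin, against 215 to 322 CPM in controls, and their part in the ligand result was not tested. Hbegf, Tgfa, Btc and Egf were not called with either drug.

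In middle small intestine none of the 6 ligands tested was called with either drug by edgeR or by DESeq2. At an unadjusted p under 0.05 there was 1 with each drug. Areg had 4.41, 8.07 and 7.96 CPM with metformin, against 4.89, 3.51 and 3.70 CPM in controls, with overlapping groups and a log2 fold change of 0.76 ± 0.25. Ereg averaged 10.8 ± 0.715 CPM with imeglimin, against 14.9 ± 2.43 CPM in controls (SD, n = 3 each), with a log2 fold change of -0.47 ± 0.15. Of all genes, 0.0279% were called with imeglimin and 0.34% with metformin. Hbegf spread from 12.4 to 46.4 CPM over the 9 libraries of this segment.

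In distal small intestine 3 ligands rose with metformin. Areg had 47.5, 28.3 and 41.6 CPM with metformin, against 9.85, 9.84 and 10.9 CPM in controls, and rose by 1.94 ± 0.22 on the log2 scale (edgeR adjusted p = 0.0115). Btc had 9.43, 15.9 and 16.6 CPM with metformin, against 4.16, 4.64 and 4.33 CPM in controls, and rose by 1.68 ± 0.22 (edgeR adjusted p = 0.0204). Ereg, already the highest here of all segments, had 69.8, 67.1 and 70.1 CPM with metformin, against 39.4, 36.9 and 36.1 CPM in controls, and rose by 0.88 ± 0.13 (edgeR adjusted p = 0.0355). In each of the 3 genes all metformin libraries lay above all controls. Hbegf (-0.12 ± 0.32), Tgfa (0.05 ± 0.21) and Egf (-0.93 ± 0.43) were not called, and 0.625% of all genes were.

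These calls sat close to the threshold. With the replicate number as a block Areg alone remained, with adjusted p = 0.08 for Btc and 0.112 for Ereg. The Areg call was lost without control replicate 2 (0.0703) or metformin replicate 3 (0.0667). The adjusted p of Btc was 0.0572 to 0.0971 without any of the 3 controls, imeglimin replicate 3 or metformin replicate 2 or 3, and 0.0843 with the 2 groups alone. The adjusted p of Ereg was 0.053 to 0.191 in 8 of the 9 fits that left out a library, and 0.0509 with no filter beyond 1 read. Control replicate 1, the library with high Paneth cell markers, was 1 of the libraries whose removal ended the Btc and Ereg calls (0.0596 and 0.0714). The log2 fold changes without it were 1.64 for Btc and 0.92 for Ereg. No marker list had a called gene in this comparison, and the median log2 fold change was 0.14 for goblet, -0.78 for fibroblast and -1.31 for Paneth and deep crypt secretory cell markers.

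With imeglimin the distal small intestine showed no such rise. Areg had 7.13, 4.74 and 6.55 CPM, Ereg 24.4, 16.8 and 21.7 CPM and Hbegf 13.8, 12.8 and 16.1 CPM with imeglimin. The controls held 9.85, 9.84 and 10.9 CPM of Areg, 39.4, 36.9 and 36.1 CPM of Ereg and 21.9, 39.4 and 50.9 CPM of Hbegf. All imeglimin libraries lay below all controls for these 3 genes, with log2 fold changes of -0.73 ± 0.22, -0.84 ± 0.13 and -1.39 ± 0.33, and none passed by edgeR (adjusted p = 0.351, 0.128 and 0.266). The 3 had an unadjusted p under 0.05, and DESeq2 called 2 of them, Ereg (adjusted p = 4.21e-05) and Hbegf (0.00412). Over all genes 0.0219% were called by edgeR. Btc was at 0.00 ± 0.21.

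The direct comparison of the drugs in distal small intestine called Areg and Ereg lower with imeglimin than with metformin. The log2 difference was -2.67 ± 0.23 for Areg and -1.72 ± 0.14 for Ereg (edgeR adjusted p = 0.00955 each), where 0.0494% of all genes were called. Btc differed by -1.67 ± 0.22 and Hbegf by -1.27 ± 0.33, with all imeglimin libraries below all metformin libraries, and did not pass by edgeR (adjusted p = 0.0579 and 0.366) but did by DESeq2 (1.27e-08 and 0.0141). With the 2 groups alone neither Areg (adjusted p = 0.0959) nor Ereg (0.0736) passed. Both calls were also lost without imeglimin replicate 3 (0.0661 each) or metformin replicate 3 (0.0592 each), and that of Ereg without metformin replicate 2 (0.0539).

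In the colon after 4 weeks Btc was high with both drugs and Areg with metformin. Btc had 11.8, 12.8 and 17.0 CPM with imeglimin and 15.8, 19.7 and 16.2 CPM with metformin, against 8.91, 6.58 and 7.24 CPM in controls. All drug libraries lay above all controls, and Btc rose by 0.87 ± 0.17 with imeglimin (edgeR adjusted p = 0.0118) and by 1.18 ± 0.17 with metformin (edgeR adjusted p = 0.00159). Areg had 52.3, 38.3 and 37.4 CPM with metformin, against 21.1, 24.6 and 15.3 CPM in controls, and rose by 1.07 ± 0.24 (edgeR adjusted p = 0.0141). With imeglimin Areg had 20.6, 15.3 and 29.4 CPM, which overlapped with the controls, and its log2 fold change was 0.10 with a 95% interval of -0.44 to 0.64. In this tissue 13% of all genes were called with imeglimin and 19.7% with metformin.

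Without control replicate 3, the library with pancreas markers, the log2 fold change was 0.84 for Btc with imeglimin (adjusted p = 0.0518) and 0.90 for Areg with metformin (adjusted p = 0.0531). Btc with metformin passed in every alternative run. Hbegf had 14.1, 13.2 and 9.36 CPM with metformin, against 25.1, 19.5 and 12.6 CPM in controls, and its log2 fold change of -0.64 ± 0.24 did not pass (edgeR adjusted p = 0.0907). It passed with the replicate number as a block (0.0251), without control replicate 3 (0.029) and with DESeq2 (0.0352). Ereg, which had stood high in the acute colon, averaged 4.40 ± 0.761 CPM with imeglimin and 4.61 ± 1.47 CPM with metformin, against 5.32 ± 0.717 CPM in controls (SD, n = 3 each). Tgfa was within 0.02 of control on the log2 scale with both drugs, with 95% intervals of -0.21 to 0.25 for imeglimin and -0.23 to 0.22 for metformin.

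Cell type markers moved in the chronic colon as well. With metformin 6 of 7 fibroblast and 5 of 6 smooth muscle markers were called lower, and 3 of 7 goblet and 3 of 4 general epithelial markers higher. With imeglimin 3 of 7 fibroblast markers were lower, and 2 of 7 goblet markers higher. Over all genes 19.7% were called with metformin and 13% with imeglimin, in either direction. The summed goblet markers were 15886 to 19731 CPM with imeglimin and 17859 to 24691 CPM with metformin, against 13080 to 16223 CPM in controls. Their part in the rise of Btc was not tested. Imeglimin against metformin gave no called ligand in this tissue by edgeR (0.611% of all genes were called). DESeq2 called 1, and 1 had an unadjusted p under 0.05. That was Areg, at -0.97 ± 0.24 on the log2 scale (edgeR adjusted p = 0.0926, DESeq2 adjusted p = 0.00151), which edgeR also called without imeglimin replicate 3 (0.0278).

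**Figure D3:**
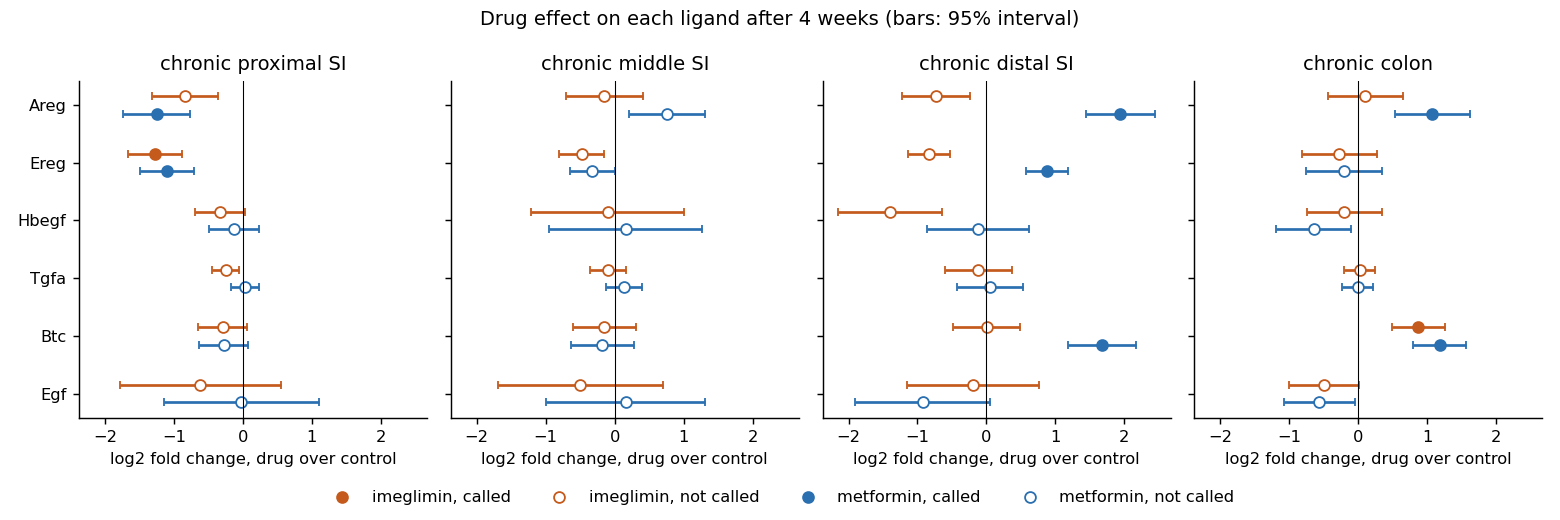
Log2 fold change of 6 ligands, drug over control, in the 4 segments after 4 weeks, with 95% intervals, imeglimin above metformin in each pair and filled points for an edgeR adjusted p under 0.05. With metformin Areg runs from -1.25 in proximal to 1.94 in distal small intestine, and Btc is called in distal small intestine and colon.

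The difference between segments was itself tested, in 1 fit of the 36 chronic libraries. The metformin log2 fold change differed between the 4 segments for 3 of the 7 ligands, against 4.03% of all genes. These were Areg (edgeR adjusted p = 3.24e-05), Btc (3.14e-05) and Ereg (0.000173). The log2 fold changes set beside these tests are from the separate fit of each segment. From the proximal segment down to the colon, the log2 fold changes with metformin were -1.25, 0.76, 1.94 and 1.07 for Areg, -1.10, -0.32, 0.88 and -0.21 for Ereg and -0.28, -0.18, 1.68 and 1.18 for Btc. The imeglimin log2 fold change differed for 1 ligand, Btc (edgeR adjusted p = 0.0312, against 2.96% of all genes), whose log2 fold changes were -0.29, -0.15, 0.00 and 0.87. That call was lost without any single replicate number (0.116 to 0.447) and with no filter on low counts (0.0548). For Ereg the imeglimin test gave 0.0828, and 0.0432 with the replicate number as a block.

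Over all 5 tissues, with colon counted in each experiment, imeglimin and metformin were compared at matched time in 31 pairs of a ligand and a tissue. The dose was matched in acute colon, and the concentration in the drinking water in the chronic tissues. The labels give no water intake, so the chronic doses are not known to match. The p-values of the pairs were adjusted over all genes of a tissue. In the chronic tissues 2 passed by edgeR, Areg and Ereg in distal small intestine. In acute colon, whose libraries chose the family, Areg alone was past the threshold. In proximal small intestine none passed by edgeR or DESeq2, with 1 at an unadjusted p under 0.05, and 1.09% of all genes were called. There the log2 difference of Areg was 0.40 with a 95% interval of -0.09 to 0.89, and that of Ereg -0.17 with an interval of -0.57 to 0.23. In middle small intestine Areg was lower with imeglimin than with metformin by 0.91 on the log2 scale without overlap, which DESeq2 called (adjusted p = 0.0408) and edgeR did not (0.247), and 0% of all genes were called by edgeR. The Areg difference was positive in acute colon and negative in distal small intestine, settings that differ in tissue, dose, route and time. In chronic colon the Areg difference was -0.97 ± 0.24 (edgeR adjusted p = 0.0926, DESeq2 adjusted p = 0.00151).

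**Figure D4:**
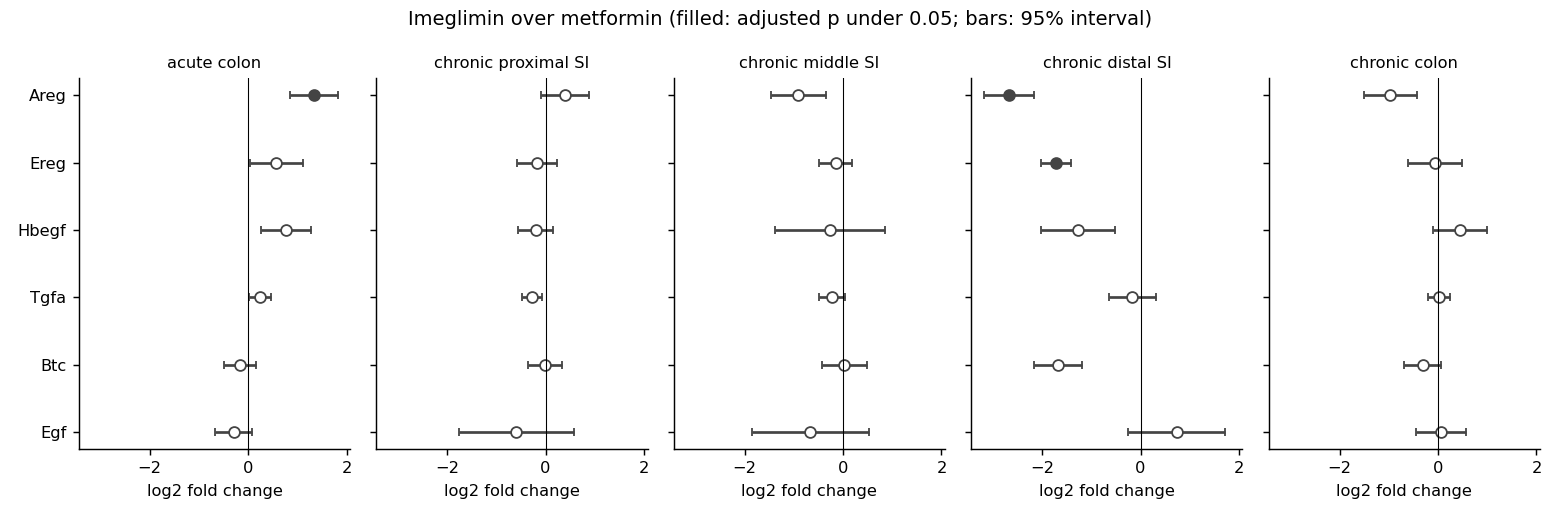
Log2 fold change of imeglimin over metformin for 6 ligands in the 5 tissues, with colon counted in each experiment. Intervals are 95%, and filled points mark an edgeR adjusted p under 0.05. Areg is at 1.34 in acute colon and at -2.67 in distal small intestine, and Tgfa lies between -0.28 and 0.24 in all tissues.

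The receptors and the rest of the pathway were read from 6 lists. Of the ErbB receptors, Erbb4 was too low to be tested. Egfr was tested, and it was called in acute colon with neither drug. In acute colon Erbb2 and Erbb3 had log2 fold changes of -1.91 ± 0.10 and -1.51 ± 0.12 with imeglimin and -1.85 ± 0.10 and -1.45 ± 0.12 with metformin, in the libraries in which Areg was high. In the same libraries 9 of 10 ERK-induced targets were called higher with imeglimin and 8 of 10 with metformin, where 33.3% and 19.7% of all genes were called in either direction. Dusp5, a phosphatase of ERK, had log2 fold changes of 2.32 ± 0.26 and 2.11 ± 0.26, and Phlda1 of 3.04 ± 0.30 and 1.40 ± 0.29 with imeglimin and with metformin. These come from the contrast that chose the family and are a description. Between the drugs in acute colon, 2 of 15 feedback inhibitors and 1 of 10 ERK-induced targets were called, against 0.645% of all genes. The called genes, all higher with imeglimin, were the ERK phosphatase Dusp6 (1.00 ± 0.13, edgeR adjusted p = 0.0156), the Sprouty gene Spry2 (0.91 ± 0.15, 0.0344) and Phlda1 (1.63 ± 0.28, 0.0374). The median over all genes was 0.02. The libraries are those that chose the family, so these values too are a description. Leaving out 1 library ended the Dusp6 call in 3 of 9 fits (highest adjusted p = 0.0755), the Spry2 call in 5 (0.155) and the Phlda1 call in 6 (0.17), and the block ended those of Spry2 (0.0787) and Phlda1 (0.0675).

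In proximal small intestine the neuregulin Nrg1, a ligand of ErbB3 and ErbB4, fell with both drugs, by 0.79 ± 0.14 with imeglimin (edgeR adjusted p = 0.0382) and by 0.70 ± 0.14 with metformin (0.0269) on the log2 scale. With imeglimin Dusp6 fell by 1.07 ± 0.18 (edgeR adjusted p = 0.0291) and the ubiquitin ligase Cbl by 0.31 ± 0.06 (0.0426), and Erbb3 rose by 0.54 ± 0.10 (0.0395). With metformin 4 of 13 shedding and transport genes fell and 1 rose, where 4.11% of all genes were called. Among those that fell was Nkd2, which carries the Tgfa precursor to the cell surface, at -0.73 ± 0.15 (edgeR adjusted p = 0.0255). The protease Adam8 was at -0.85 ± 0.18 (edgeR adjusted p = 0.0282). Nkd2 was also higher with imeglimin than with metformin, by 1.11 ± 0.15 (0.0115), as was the cyclin gene Ccnd1, by 0.80 ± 0.15 (0.035). Each of these 9 calls was lost in 2 to 9 of the 9 fits that left out a library, with a highest adjusted p of 0.161, and the block ended the 4 imeglimin calls (0.0535 to 0.0783). None of the 60 genes tested was called with either drug in middle small intestine. Over all genes 0.0279% were called there with imeglimin and 0.34% with metformin.

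In distal small intestine, where Areg, Btc and Ereg rose with metformin, 1 of the 61 genes tested was called with metformin, against 0.625% of all genes. The called gene was Dusp5, which rose by 1.60 ± 0.16 (edgeR adjusted p = 0.0062). With imeglimin 0 of 61 were called (0.0219% of all genes). Against metformin Phlda1 was lower with imeglimin by 1.65 ± 0.20 (edgeR adjusted p = 0.0353), where 0.0494% of all genes were called. The Dusp5 call was lost in 1 of 9 fits that left out a library (0.0637), and the Phlda1 call in all 9 (highest 0.229) and with the block (0.142). In chronic colon 2 genes rose and 7 fell of 62 tested with imeglimin, where 13% of all genes were called. With metformin 6 rose and 11 fell, where 19.7% were called. The ERK phosphatase Dusp4 rose by 1.01 ± 0.15 with imeglimin (edgeR adjusted p = 0.00418) and by 1.78 ± 0.15 with metformin (0.000164), and Dusp5 rose by 1.39 ± 0.30 with metformin (0.011). Rhbdl2, a rhomboid protease, fell by 0.47 ± 0.07 with imeglimin (edgeR adjusted p = 0.00516) and by 0.51 ± 0.07 with metformin (0.00151). Rhbdf1, which helps Adam17 to the cell surface, fell by 0.78 ± 0.12 (0.00575) and by 0.65 ± 0.12 (0.00624).

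Of the signal relay in chronic colon, Hras rose by 0.31 ± 0.09 with imeglimin (edgeR adjusted p = 0.0424) and by 0.60 ± 0.09 with metformin (0.00151), and the exchange factor Sos1 fell by 0.45 ± 0.08 (0.00913) and by 0.35 ± 0.08 (0.0173). Cbl fell by 0.62 ± 0.09 with each drug (0.0046 and 0.00172). Fos, an immediate ERK target, fell by 0.58 ± 0.17 with metformin (0.034), and Erbb2 by 0.59 ± 0.13 (0.0131). Of the ERK-induced targets 1 was called higher and 2 lower with metformin, where 19.7% of all genes were called in either direction. Leaving out 1 library ended the imeglimin call of Hras in 8 of 9 fits (highest adjusted p = 0.149), and with metformin the calls of Sos1 in 4 (0.0766), Fos in 4 (0.121) and Erbb2 in 1 (0.0511). The block also ended the imeglimin call of Hras (0.0572).

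The genes whose log2 CPM ran most like each ligand over all 45 libraries were listed by Pearson's r among 16263 genes. For Areg they were Ptp4a1 (0.919), Gm15801 (0.915) and Gm8783 (0.906), and for Btc Vldlr (0.922), Prelid3b (0.909) and Eif3c (0.901). For Ereg they were Lpcat4 (0.900), Elovl1 (0.867) and Myl12a (0.866), and for Egf Rab3d (0.967), Igdcc4 (0.966) and Sidt1 (0.965). Tgfa ran with Sdcbp2 (0.899), Spdef (0.892) and Serinc2 (0.889), and Hbegf had no gene above Epha2 (0.664). Between the ligands r was 0.808 for Areg and Btc, 0.494 for Areg and Ereg and 0.0173 for Areg and Hbegf. The libraries share segments and treatments, so these values are a description over tissues that differ.

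Single-cell counts of the colon after 12 weeks came as 3 matrices named Ime, Met and CT, with 4732, 12928 and 8001 cells and a median of 1354.5, 5496.5 and 2341 molecules (UMIs) per cell. Treatments are read from the matrix names alone, and with 1 matrix each there is no test. The matrices shared 625 to 1686 of their 16-base droplet barcodes pairwise. Of 39 clusters, made without the ligand genes from 25637 cells with at least 500 UMIs, 25 could be named from marker genes and 14 could not. Levels are CPM of the summed UMIs of a class with exact Poisson 95% intervals, which cover counting error only. No doublet caller was run, and the unnamed clusters of the highest depth had medians of 27828 and 21270 UMIs.

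Ereg was highest in stromal classes. In fibroblast-like cells it had 71.7 CPM (50.5 to 98.8) in Ime, 47.1 (42.1 to 52.4) in Met and 62.3 (49.3 to 77.6) in CT, and in goblet-like cells 0, 0.634 and 0.611 CPM from 0, 7 and 1 UMIs. Its highest level was in a fibroblast-like cluster led by Dmp1, Trpa1, Edar and Nrg1, with 159, 71.6 and 165 CPM in Ime, Met and CT. A smooth muscle-like cluster led by Hhip had 97.0, 59.5 and 100 CPM from 3, 23 and 10 UMIs. With coarser clusters the class called fibroblast-like no longer held the Ereg cells, at 7.11, 0.974 and 4.57 CPM in the same order, so the place of Ereg in named classes depended on the clustering.

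Btc was highest among the named classes in goblet-like cells, the mucus-producing cells, with 70.0 CPM (48.5 to 97.8) in Ime, 41.9 (38.1 to 45.9) in Met and 54.4 (43.7 to 67.0) in CT. Fibroblast-like cells had 1.94, 9.95 and 5.52 CPM of it. With coarser clusters its highest named class in Met was enteric glia-like. Tgfa was broad in the epithelium, with 30.9, 43.4 and 43.4 CPM in goblet-like, 23.4, 31.7 and 25.6 in cycling-like and 17.2, 23.6 and 19.2 in stem-like cells, in the order Ime, Met, CT. In fibroblast-like cells it had 3.88, 7.11 and 4.73 CPM. The highest named class of Tgfa in Met was enteroendocrine-like with coarser clusters and interstitial cells of Cajal-like in cells with at least 1000 UMIs.

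Areg was highest in 1 unnamed cluster in all 3 matrices, over clusters with at least 50 cells there. This cluster was led by Oaz3, Higd1c and H4c11, and 94.5% of its cells held Epcam, an epithelial adhesion gene. Epcam was also held by 96.7% of the cells of a smooth muscle-like cluster and by 29.1% of B cell-like cells, so it does not name the cluster. The unnamed cluster had 164 CPM (144 to 187) of Areg in Ime, 330 (294 to 370) in Met and 210 (196 to 224) in CT. It held 36.4% of all Areg UMIs of CT in 520 of 7995 cells. That share is for CT alone and does not carry over to Met, where the cluster held 263 of 12918 cells. Its Hbegf was 30.1, 87.0 and 73.4 CPM in Ime, Met and CT. Absorptive colonocyte-like cells had 192 CPM (187 to 196) of Areg in Met, but 1870 of the 1886 cells of this class came from that matrix, so it cannot be compared between treatments. Stem-like cells had 0, 10.0 and 0.713 CPM of Areg, and B cell-like cells had 14.5, 19.6 and 11.6 CPM. The B cell-like cluster had a median of 1115.5 UMIs per cell, and the stem-like cluster 4351. The background level was not measured, so none of these values is read as expression by the class. With coarser clusters the B cell-like level was higher still, at 26.1, 65.4 and 35.9 CPM.

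Egf reached at most 23.8 CPM, from 3 UMIs, in a named class of at least 50 cells. An unnamed cluster led by Insrr, A4gnt and Reg4, which also held the goblet cell markers Muc2, Spink4 and Agr2, had 19.0 CPM (9.82 to 33.2) of it in Ime, 39.6 (34.6 to 45.05) in Met and 29.97 (22.7 to 38.8) in CT. The highest value, 347 CPM (273 to 435) in CT, was in an unnamed cluster led by Glb1l3, Tgm4 and Msmb, of whose 101 cells 88 were in CT. Tgm4 and Msmb are known as genes of the prostate. This cluster held 21.3% of the Egf UMIs of CT, so the total Egf of that matrix cannot be set against the others. Epgn had 2, 33 and 5 UMIs in Ime, Met and CT.

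**Figure D5:**
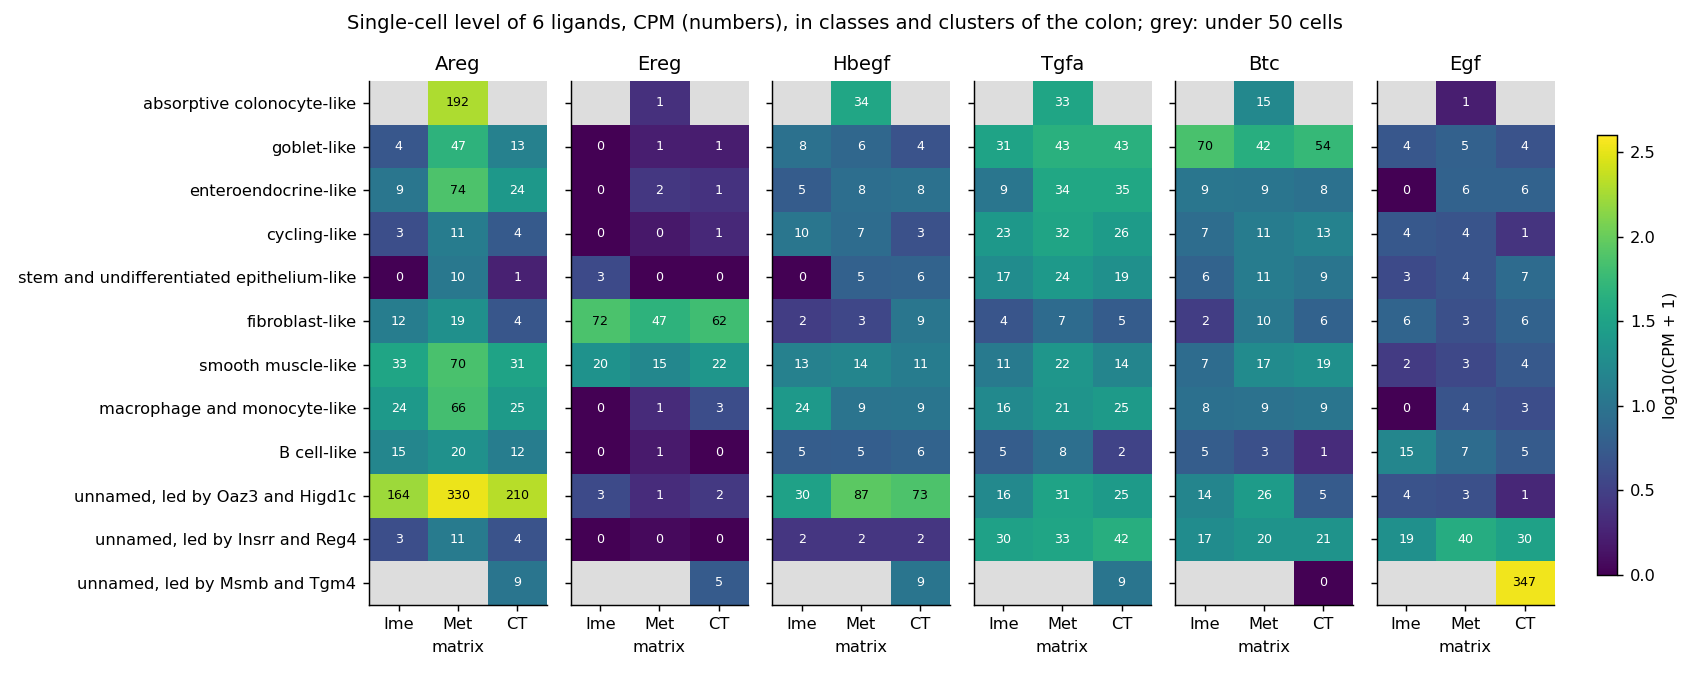
Level of 6 ligands in CPM (numbers, with colour on a log10(CPM + 1) scale) in cell classes and 3 unnamed clusters of the colon, for the matrices Ime, Met and CT, with grey for fewer than 50 cells. Ereg is highest in fibroblast-like, Btc in goblet-like cells and Areg in the cluster led by Oaz3 and Higd1c.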

How the data were processed

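Per the labels' protocols, 45 bulk libraries were made with a stranded mRNA kit, and the authors deposited raw counts per gene symbol in 5 tables of 9 libraries. Builds mm10 and GRCm39 are listed without roles in the submitters' processing notes, with HISAT2, StringTie, Trimmomatic, FastQC and Cell Ranger (9.0.0 per a file header). The single-cell matrices are deposited UMI counts of probe-based fixed-cell libraries.

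From the counts, each table was fitted with edgeR 4.0.16 (R 4.3.3; TMM, filterByExpr, quasi-likelihood F test, Benjamini-Hochberg), and the 36 chronic libraries in 1 fit for differences between segments. The code was tested on simulated data. The members and lists were chosen with earlier results of these data known. All 7 ligands are named, and of each pathway list the 2 genes of smallest p where called. Alternatives were RLE scaling, DESeq2 1.42.0, no filter beyond 1 read, only the groups compared, a replicate block and leaving out each library. The labels give each library a batch number equal to its replicate number, and what same-numbered libraries share is not stated. The main fits left this number out, and the replicate block used it. Same-numbered libraries had mean correlations of their deviations of -0.12 to 0.0642 over the 5 tables. Libraries of other numbers had -0.0322 to 0.0598. In chronic colon 26 symbols had been turned into dates. Single cells were clustered with leidenalg 0.10.2 at resolution 1 on 2000 genes and 30 components, without the ligands. A cluster was named from at least 3 fixed markers, unless its 10 leading genes held more markers of another list, or its UMI count was low for its matrix and they held none of its own.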

Additional observations from a re-analysis of the deposited data

Results flagged for a closer look

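The log2 fold change with metformin differed between the 4 chronic segments for 3 ligands, by the test of that difference itself (edgeR F test, 36 libraries). The values printed for each segment, here and for imeglimin below, are from the separate fit of that segment. For Areg the adjusted p was 3.24e-05, with -1.25 (proximal), 0.76 (middle), 1.94 (distal) and 1.07 (colon). For Btc it was 3.14e-05, with -0.28, -0.18, 1.68 and 1.18 in the same order. For Ereg it was 0.000173, with -1.10, -0.32, 0.88 and -0.21. All 3 passed under each alternative run, with a highest adjusted p of 0.0209 for Areg, 0.0409 for Btc and 0.0444 for Ereg.

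With imeglimin the difference between segments passed for Btc (edgeR adjusted p = 0.0312), with log2 fold changes of -0.29, -0.15, 0.00 and 0.87. Over the alternatives its adjusted p ran from 0.00099 to 0.447.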

How the results depend on the processing

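No log2 fold change of a called ligand changed sign under any alternative. The number of ligands called moved by more than 1.5 times as follows. With the replicate block it was 0 for imeglimin against metformin in acute colon, 1 for metformin against control in distal small intestine and 2 for the imeglimin difference between segments. Beyond those calls and the Hbegf call in chronic colon with metformin given above, the block changed no other call of a ligand. With DESeq2 it was 2 for imeglimin against metformin in acute colon, 2 for imeglimin against control in proximal and 2 in distal small intestine, 2 for the imeglimin difference between segments, 4 for imeglimin against metformin in distal small intestine, and 1 each for imeglimin against metformin in middle small intestine and chronic colon. With the 2 groups alone it was 0 for imeglimin against metformin in distal small intestine, and with no filter beyond 1 read 0 for the imeglimin difference between segments. Smaller moves were 7 with DESeq2 and 6 with the 2 groups alone for imeglimin and 3 with the 2 groups alone for metformin in acute colon, 2 for metformin in distal small intestine with the 2 groups alone or with no filter beyond 1 read, 3 for metformin in chronic colon with DESeq2 or the block, and 4 for untreated distal small intestine against colon in the 12 control libraries alone. Leaving out 1 library or replicate number gave 0 to 1 ligands for imeglimin against metformin in acute colon, 0 to 2 for imeglimin and 0 to 2 for metformin in proximal small intestine, 0 to 3 for metformin and 0 to 3 for imeglimin against metformin in distal small intestine, 0 to 1 for imeglimin and 0 to 1 for imeglimin against metformin in chronic colon, 0 to 1 for the imeglimin difference between segments, and 1 to 2, 1 to 3 and 3 to 4 for the untreated contrasts from proximal to colon. RLE scaling kept the side of the threshold in all 128 ligand results. At the coarser single-cell clustering 3 of 6 ligands kept their named class of highest level in Met, and Ereg, Tgfa and Btc did not. Egf changed class at the finer clustering, and Egf and Tgfa with at least 1000 UMIs per cell. The cause was not tested for these changes. With 3 libraries a group, a ligand not called is not shown to be unchanged, and Epgn, at 0 to 18 counts in a chronic library, is too low for a statement there.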
